A study of Mus musculus with 3 samples.

Results

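Binding of the serum response factor SRF at the kinesin genes was described in whole cornea of Dstn-corn1 mutant mice and of wildtype mice. The kinesin genes were those in the authors' gene table whose name starts with Kif and a digit, or with Kifc and a digit, which gave 36 of 16697 genes. They carried 92 of the 31850 merged regions, a merged region being a stretch in which the authors called an SRF interval in at least 1 library. Kifc5b, a copy of Kifc1, met the rule and was counted. Of 42 protein-coding kinesin symbols in RefSeq, 6 (Kif28, Kif7, Kif2b, Kif5b, Kif20a and Kif20b) matched no gene in the authors' table by gene identifier. That table lists only genes with an interval in either library, and these 6 were not analysed further.

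Chromatin immunoprecipitation with an SRF antibody and sequencing had been carried out on corneas of mice aged about 8 weeks on a mixed background, untreated. The mutant library came from Dstn-corn1 mice, in which the gene for the actin-severing protein destrin is inactivated throughout the body, and the other SRF library came from wildtype mice. The protocol text in the labels names mutant animals for every library, so genotype was taken from the titles. How many animals went into a library is unknown. An input library without antibody was not used. With 1 library per genotype, differences are described without any test, and variation between animals is not measured.

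Kinesins are motor proteins that use ATP to move along microtubules, mostly toward the plus end. Some carry vesicles and organelles, some move material along cilia, and others build the mitotic spindle and complete cytokinesis. SRF is best known for driving genes of the actin cytoskeleton and immediate early genes, which are switched on soon after a growth signal. Its classic binding site is the CArG box, and it often binds beside ETS factors of the ternary complex factor group. The corneal epithelium is renewed by division of its basal cells.

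The values are peak heights, the authors' deposited signal where a region is tallest. Ratios are log2 of mutant over wildtype height after 1 was added to both, so differences at low heights come out too small. The 3 regions of Dstn, the mutated gene, were listed at 0 in mutant and at 35, 11 and 13 in wildtype. The median log2 ratio over all merged regions was -1.10, and over the highest region of each of the 16697 genes it was -1.08. Sequencing depth is unknown, and a common shift of this size cannot be told apart from a difference in depth or scaling.

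Kinesin genes carried SRF intervals in both corneas. In mutant 30 of the 36 kinesins had an assigned interval, 83.3% (exact binomial 95% interval 67.2 to 93.6), against 73.8% of all genes in the table. In wildtype all 36 had one, against 99% of all genes. The table lists only genes with an interval in either library, and few of all merged regions were called in mutant only. The 6 kinesins without a mutant interval were Kif3a, Kif2a, Kif11, Kif3b, Kif12 and Kif4. Of the 92 kinesin regions, 56 were called in both libraries (60.9%, 50.1 to 70.9), against 48.9% of all merged regions, with or without an assigned gene. The other 36 were called in wildtype only. None was called in mutant only, with an upper limit of 3.93%, and the share among all merged regions was 2.10%. Where both libraries had an interval, the summits lay a median of 24 bp apart, and in 54 of the 56 regions they were within 100 bp.

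The regions were spread over the genes and their flanks. There were 40 inside a kinesin gene, 29 upstream and 23 downstream, and 26 lay over 50 kb from the kinesin start. Kinesin genes are long, with a median of 46.0 kb against 18.3 kb for all genes in the table. They had 1 to 5 regions each, with a median of 2.5 against 2. Among genes of at least 48.9 kb, the 16 kinesins averaged 2.69 regions and all 4174 such genes 2.79. The authors assigned 39 of the 92 regions to another gene as well, and for 28 of them another gene's start was nearer than that of the kinesin. Whether such a region acts on the kinesin was not tested.

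**Figure D1:**
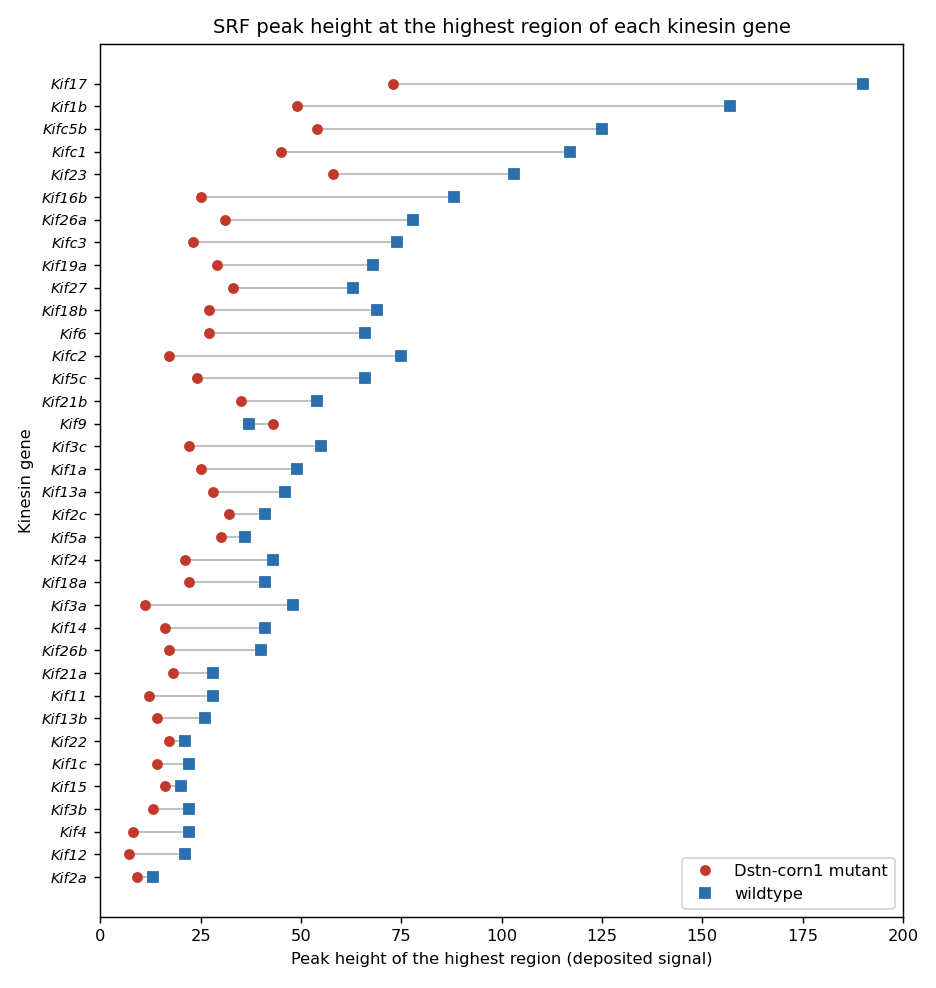
Peak heights in the mutant (circles) and wildtype (squares) library at the highest region of each of the 36 kinesin genes, ordered by mean height; grey lines join the 2 values of a gene. The range runs from Kif17, at 73 in mutant and 190 in wildtype, to Kif2a, at 9 in mutant and 13 in wildtype, and Kif9 is the gene with the higher value in mutant.

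In at least 1 library SRF lay at the gene start of 19 of the 36 kinesins (52.8%, 35.5 to 69.6), near the 48.3% of all genes in the table. An interval was called there for 14 kinesins in mutant and 19 in wildtype. The share of all genes with an interval at the start is not given for each library. At any distance, 73.8% of all genes had a mutant interval and 99% a wildtype one. In all, 20 kinesin regions were centred within 1 kb of the start, and 18 of these overlapped a CpG island, against 15 of the 72 others. Among all kinesin regions 35.9% (26.1 to 46.5) overlapped one, against 29.4% of regions with an assigned gene. For regions at the starts of all genes this share is not given. The highest of them were at Kif1b, Kifc5b, Kifc1, Kif23 and Kif26a. The sequences of these 5 promoters are shown because they are the kinesin starts with the strongest signal, and because the copies Kifc5b and Kifc1 can be compared base by base. They are the 250 bases before the start, from RefSeq on GRCm38.p6, the build of the files. Each is written 5′ to 3′ on the strand of the gene, and capitals mark CCAAT, the site of the factor NF-Y, and CCGGAA, a core of ETS sites, on either strand (ATTGG and TTCCGG where reversed). The windows are chr4:149307699-149307948 on the minus strand for Kif1b, chr17:26916841-26917090 on the plus strand for Kifc5b, chr17:33890634-33890883 on the minus strand for Kifc1, chr9:61946800-61947049 on the minus strand for Kif23 and chr12:112145958-112146207 on the plus strand for Kif26a.
Kif1b: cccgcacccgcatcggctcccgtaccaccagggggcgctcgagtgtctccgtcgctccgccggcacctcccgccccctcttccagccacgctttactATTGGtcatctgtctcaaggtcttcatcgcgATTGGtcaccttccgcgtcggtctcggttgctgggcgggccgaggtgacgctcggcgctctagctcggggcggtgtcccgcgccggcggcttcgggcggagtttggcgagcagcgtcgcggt
Kifc5b: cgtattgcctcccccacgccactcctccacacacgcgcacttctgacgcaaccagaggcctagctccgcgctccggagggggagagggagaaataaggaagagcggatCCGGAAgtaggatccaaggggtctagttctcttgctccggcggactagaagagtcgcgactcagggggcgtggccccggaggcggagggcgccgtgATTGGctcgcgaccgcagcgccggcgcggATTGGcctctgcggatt
Kifc1: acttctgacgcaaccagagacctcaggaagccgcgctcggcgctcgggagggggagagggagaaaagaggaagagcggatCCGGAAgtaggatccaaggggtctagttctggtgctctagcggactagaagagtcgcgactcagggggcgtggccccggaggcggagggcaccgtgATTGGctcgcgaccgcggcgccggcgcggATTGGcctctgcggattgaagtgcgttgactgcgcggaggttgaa
Kif23: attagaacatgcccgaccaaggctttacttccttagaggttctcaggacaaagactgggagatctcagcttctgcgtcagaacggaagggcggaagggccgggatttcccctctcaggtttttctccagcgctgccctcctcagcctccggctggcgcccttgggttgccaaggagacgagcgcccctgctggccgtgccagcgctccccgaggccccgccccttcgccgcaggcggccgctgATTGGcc
Kif26a: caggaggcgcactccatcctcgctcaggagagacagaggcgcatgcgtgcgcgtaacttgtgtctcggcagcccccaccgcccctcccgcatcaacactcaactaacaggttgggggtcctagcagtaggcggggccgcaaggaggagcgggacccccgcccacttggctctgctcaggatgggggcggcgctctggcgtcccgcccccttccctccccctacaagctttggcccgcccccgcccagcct

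Of the 19 kinesins with a region at the start, 17 had a promoter entry in RefSeq, and 16 of these had the same start within 100 bp and a region over the window. A CArG box was found in 0 of the 16 windows of 250 bases, searched on both strands, against 1.40% of 27018 such windows over all genes. With 1 letter off allowed it was found in 1 (6.25%), that of Kif3b, against 18.9% of all windows. CCGGAA was found in 5 windows (Kifc5b, Kifc1, Kif9, Kif18a and Kif16b), or 31.25%, against 12.2% of all windows. CCAAT was found in 7 windows (43.75%) against 34.5%. GGGCGG, the core of the Sp1 site, was found in 11 (68.75%) against 32.9%. TTTGAA, the core of the cell cycle homology region, was found in 2 (12.5%) against 16.3%. The kinesin windows were chosen for an SRF region over them, whereas those of all genes were not restricted to SRF regions or CpG islands. ATTGG and GGGCGG can share letters, but in the 5 printed windows no matches overlapped. A match is a description of letters, and a window without a match says nothing about SRF.

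The summits did not all fall in these windows. At Kif23 both summits lay at -49 bp from the start, negative meaning upstream, and at Kif1b they lay at -190 in mutant and -174 in wildtype. At Kifc5b both lay at -291 and at Kifc1 both at -279, just beyond the printed bases. At Kif26a the highest summits lay at -832 in mutant and -864 in wildtype. The Kifc5b and Kifc1 windows aligned over 212 bases, of which 201 were identical (94.8%), and both hold 1 CCGGAA and 2 reversed CCAAT. Reads from such copies may be placed on either gene, and how the authors treated reads with several matches is unknown. The heights of these copies are therefore uncertain as values of separate genes.

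Among the kinesins of mitosis and cytokinesis, the 3 with the highest signal had it at the gene start. Kif23, a motor of the central spindle that is needed for cytokinesis, had 58 in mutant and 103 in wildtype over its start (chromosome 9, 61946382 to 61947281), a log2 ratio of -0.82. A further region at -1371 bp had 33 in mutant and 65 in wildtype. Kifc1, a minus-end motor that focuses spindle poles, had 45 in mutant and 117 in wildtype at its start (chromosome 17, 33890408 to 33891327), and its copy Kifc5b had 54 in mutant and 125 in wildtype (chromosome 17, 26916434 to 26917320). Their log2 ratios were -1.36 and -1.20, so both copies were below the median of all genes and Kif23 was above it.

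The other members of this group were lower. Kif18a, which aligns chromosomes, had 22 in mutant and 41 in wildtype at its start. Another Kif18a region, at -2388 bp and 60 bp from the start of Mettl15, had 5 in mutant and 22 in wildtype. Kif2c, a microtubule depolymerase of the centromere, had 32 in mutant and 41 in wildtype at a region at -7019 bp, but 16 in mutant and 40 in wildtype at its start, so its regions differed in ratio, at -0.35 and -1.27. Kif15, a spindle motor, had 16 in mutant and 20 in wildtype at a start shared with 1110059G10Rik. Kif11, the motor that pushes spindle poles apart, had 12 in mutant and 28 in wildtype at a region 43432 bp inside the gene, and 8 in mutant and 14 in wildtype at its start. Kif14, a cytokinesis motor, had 16 in mutant and 41 in wildtype inside the gene, and Kif2a, another depolymerase, 9 in mutant and 13 in wildtype at its start. Neither Kif11 nor Kif2a had a mutant interval. The chromokinesin Kif22 had 17 in mutant and 21 in wildtype, and Kif18b, a regulator of spindle microtubules, 27 in mutant and 69 in wildtype; their highest regions lay nearer to Maz and to Gfap. The chromokinesin Kif4, on chromosome X, had 8 in mutant and 22 in wildtype at a region next to the start of Gdpd2. Over the 12 genes of this group the median log2 ratio was -1.01 (-1.32 to -0.35), or 0.015 with both libraries scaled to a common median, against -1.08 and -0.049 for all genes. Of the 12, 6 were at least 2-fold lower in mutant, 8 had a region at the start and 9 had a mutant interval.

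The 13 cargo kinesins had 39 regions, 7 of them within 1 kb of the start, against 20 of 92 over all kinesins, and the median log2 ratio at the highest region was -0.94 (-1.66 to -0.61), or 0.098 with scaling. Kif1b, a motor for mitochondria and synaptic vesicle precursors, had its highest region 140855 bp past its start, at 49 in mutant and 157 in wildtype, with a log2 ratio of -1.66. That region lies 136 bp from the start of Pgd. At the Kif1b start itself (chromosome 4, 149307172 to 149308588) the heights were 54 in mutant and 129 in wildtype, with a log2 ratio of -1.24, so the start held the higher mutant value and the Pgd region the higher wildtype value.

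Inside genes, Kif16b, a motor of early endosomes, had 25 in mutant and 88 in wildtype at a region 41765 bp past the start, a log2 ratio of -1.78, and 13 in mutant and 19 in wildtype at the start. Kif5c, a heavy chain of conventional kinesin, had 24 in mutant and 66 in wildtype, and another region inside the gene had 21 in mutant and 68 in wildtype. Kif3c, a kinesin-2 subunit, had 22 in mutant and 55 in wildtype. Kifc3, a minus-end motor, had 23 in mutant and 74 in wildtype at a region past its end. Kifc2, another minus-end motor, had 17 in mutant and 75 in wildtype at a region 687 bp past its start, with the lowest ratio among the highest regions of the 36 genes, -2.08. Another region of Kifc2, at -625 bp and nearer to Cyhr1, had 9 in mutant and 12 in wildtype, with a log2 ratio of -0.38. These 5 genes were all more than 2-fold lower in mutant at the highest region, as was Kif1b. In all, 6 of the 13 cargo kinesins were at least 2-fold lower there (46.2%, 19.2 to 74.9), against 57.6% of all genes.

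At the highest region the remaining cargo kinesins had smaller unscaled differences, and all 7 turned to higher in mutant with scaling, Kif5a the furthest, at 0.79. Kif5a, a heavy chain used in neurons, had 30 in mutant and 36 in wildtype, with a log2 ratio of -0.26, and shared its other region with the start of Dctn2, at 13 in mutant and 22 in wildtype. Kif21b had 35 in mutant and 54 in wildtype and Kif21a 18 in mutant and 28 in wildtype; both are transport motors described in neurons. Kif1a, a motor for synaptic vesicle precursors, had 25 in mutant and 49 in wildtype, and Kif1c, a vesicle motor, 14 in mutant and 22 in wildtype at a start shared with Inca1. By the average value over that region Kif1c was instead higher in mutant, at 7.94 in mutant and 7.03 in wildtype. The vesicle motor Kif13a had 28 in mutant and 46 in wildtype, and the related Kif13b 14 in mutant and 26 in wildtype. These 7 genes are the cargo kinesins left after the 6 that were at least 2-fold lower in mutant at the highest region. Over all regions, median log2 ratios were -1.36 for Kif1a, -1.05 for Kif21b, -0.76 for Kif13b, -0.70 for Kif13a and -0.49 for Kif5a. Kif21a and Kif1c had 1 region each.

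Among the kinesins of cilia, Kif17 stood highest. Kif17, a motor of intraflagellar transport and of neuronal dendrites, had 73 in mutant and 190 in wildtype at a region 21028 bp inside the gene (chromosome 4, 138282515 to 138284044), the highest height of any kinesin region in both libraries. Its log2 ratio was -1.37. At the Kif17 start the heights were only 11 in mutant and 14 in wildtype. A region at the start of Ddost, 42546 bp past the Kif17 start, had 40 in mutant and 83 in wildtype.

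Kif9, a kinesin of motile cilia, was the single kinesin with the higher height in mutant at its highest region, with 43 in mutant and 37 in wildtype (chromosome 9, 110476317 to 110477375), a log2 ratio of 0.21. This region lies at -112 bp from the Kif9 start and 152 bp from that of Klhl18, so it cannot be ascribed to Kif9 alone. The second Kif9 region, at the start of Setd2, had 27 in mutant and 32 in wildtype. Kif3a and Kif3b, partner subunits of the main intraflagellar motor, differed from each other. Kif3a had 11 in mutant and 48 in wildtype at a region 17593 bp inside the gene, a log2 ratio of -2.03, and Kif3b 13 in mutant and 22 in wildtype at its start, a log2 ratio of -0.72; neither had a mutant interval.

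The other cilium kinesins had their highest regions far inside or past the gene. Kif19a, which limits cilium length, had 29 in mutant and 68 in wildtype, Kif27, related to the Hedgehog kinesin Kif7, 33 in mutant and 63 in wildtype, and Kif6 27 in mutant and 66 in wildtype. Kif24, a depolymerase that restrains ciliogenesis, had 21 in mutant and 43 in wildtype past its end near Ubap1, and 21 in mutant and 32 in wildtype at a start shared with Nudt2. With scaling 3 kinesins of this group that were lower in mutant turned to higher, Kif3b at 0.30, Kif27 at 0.14 and Kif24 at 0.036. Over the 8 genes the median log2 ratio was -1.10, or -0.061 with scaling, with an unscaled range from -2.03 to 0.21. Outside these groups stood Kif26a and Kif26b, atypical kinesins, and Kif12. Kif26a had 31 in mutant and 78 in wildtype at its start, Kif26b 17 in mutant and 40 in wildtype at a region 1665 bp past its start, and Kif12 7 in mutant and 21 in wildtype at a region near Ambp. All 3 were more than 2-fold lower in mutant at these regions, with a median of -1.30, or -0.26 with scaling. A second Kif26b region, at -1563 bp, had 25 in mutant and 29 in wildtype.

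**Figure D2:**
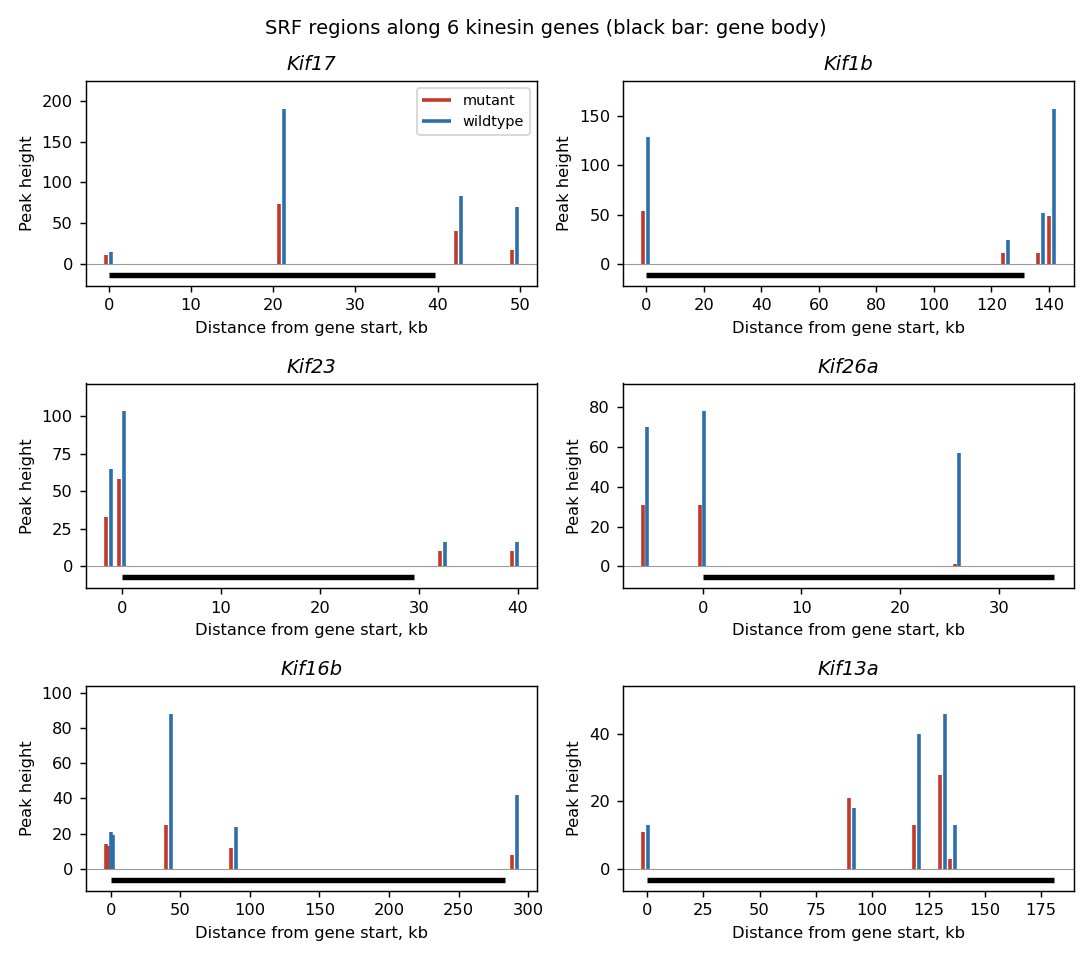
Peak heights in mutant (left line of each pair) and wildtype (right line) for every region of 6 kinesin genes, by distance from the gene start in kb, with the gene body as a black bar; the paired lines are set slightly apart around the region's centre. Kif23 has its highest region at the start and Kif17 inside the gene, Kif1b has a high region at each end, and the inner region of Kif26a is at 1 in mutant and 57 in wildtype.

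Heights were lower in mutant at 90 of the 92 kinesin regions, against 30400 of all 31850 merged regions. The median log2 ratio was -1.04 (95% interval -1.22 to -0.81), against -1.10 for all merged regions. For merged regions with an assigned gene, as every kinesin region has, it was -1.06. At least 2-fold lower in mutant were 48 regions, 52.2% (41.5 to 62.7), against 59% of all merged regions and 55.8% of those with an assigned gene. At least 2-fold higher in mutant was none, with an upper limit of 3.93%, against 0.414% of all. At the highest region of each gene, 20 of the 36 kinesins were at least 2-fold lower (55.6%, 38.1 to 72.1), against 57.6% of all genes, and none was 2-fold higher, against 0.198%. Of the 36, 17 lay above the median of all genes. With scaling 16 of the 35 kinesins that were lower in mutant turned to higher. These shares are near those of all regions and genes. The intervals cover counting error over regions or genes and not variation between animals. With both libraries scaled to the same median height over regions called in both, 9 kinesin regions were 2-fold lower and 2 were 2-fold higher, against 9.3% and 4.58% of all merged regions, and the regions split evenly, 46 above and 46 below equal heights.

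**Figure D3:**
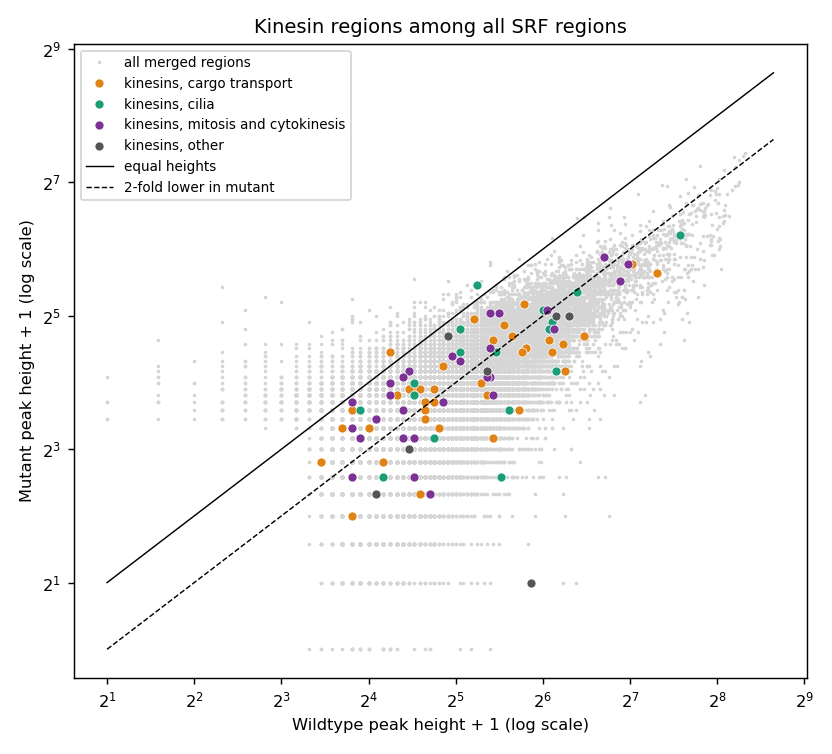
Mutant against wildtype peak height, 1 added to each, on log axes for the 92 kinesin regions (coloured by role) over all 31850 merged regions (grey). Kinesin regions lie within the cloud of all regions, with 90 of 92 below the line of equal heights, against 30400 of all 31850.

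Kinesin regions near a start had higher log2 ratios than distant ones, with intervals that overlap. Within 1 kb of the kinesin start the median heights were 16 in mutant and 27 in wildtype. The median log2 ratio was -0.68 over 20 regions (-1.20 to -0.49). From 1 to 10 kb it was -0.72 over 15 regions (-1.15 to -0.52). From 10 to 50 kb the median heights were 12 in mutant and 27 in wildtype, with a log2 ratio of -1.22 over 31 regions (-1.49 to -1.03). Beyond 50 kb they were 14.5 in mutant and 39 in wildtype, with a log2 ratio of -1.27 over 26 regions (-1.55 to -0.91). Taking the nearest start of any assigned gene, the kinesin medians in these 4 classes were -0.72, -0.86, -1.37 and -1.26, against -0.81, -1.10, -1.14 and -1.23 for all regions. With both libraries scaled to a common median, the kinesin medians by distance from the kinesin start were 0.30, 0.31, -0.25 and -0.24, so the near classes turned to higher in mutant and the distant ones stayed lower. Over all regions by nearest assigned start, the scaled medians were 0.21, -0.084, -0.12 and -0.23. Over all regions, those within 1 kb of a start were thus highest with and without scaling. By distance from the kinesin start, the kinesin class within 1 kb was highest without scaling only. With scaling it was at 0.30, beside 0.31 from 1 to 10 kb. No difference between kinesins and other genes was tested.

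**Figure D4:**
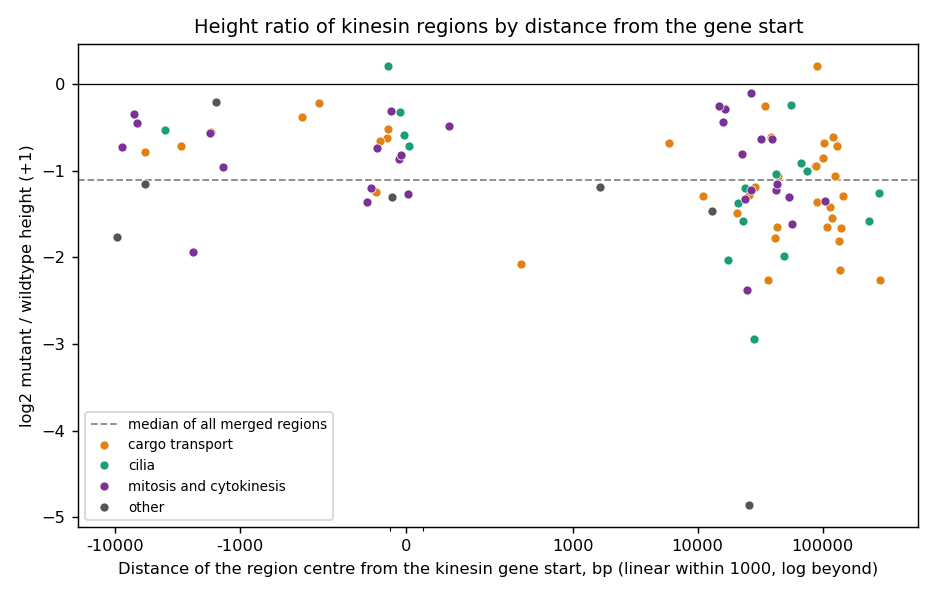
Log2 ratio of mutant to wildtype height of the 92 kinesin regions by distance of the region's centre from the kinesin start, linear within 1000 bp and logarithmic beyond; the dashed line is the median of all merged regions, -1.10. Most regions within 10 kb of the start lie above the dashed line, and the Kif26a region near the bottom has the lowest ratio, -4.86.

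Regions of the same gene differed in ratio in some kinesins, as they did in other genes. Of the 28 kinesins with more than 1 region, 12 had log2 ratios that spread over more than 1. That is near the share of all genes with more than 1 region, 38.2% (3815 of 9992). The median spread was 0.96 against 0.81. A spread can grow with the number of regions, which had a median of 2.5 over all 36 kinesins against 2 over all genes. No difference in spread between kinesins and other genes was tested. Kif26a had the widest spread. Its regions upstream and at the start had 31 in mutant each, against 70 and 78 in wildtype, whereas the region 25695 bp inside the gene had 1 in mutant and 57 in wildtype. The average value of that inner region was 1.00 in mutant and 20.5 in wildtype, so the low mutant signal held over its length. Kif13a had the next widest spread. Its region 90974 bp inside the gene had 21 in mutant and 18 in wildtype, with a log2 ratio of 0.21, while that at 119466 bp had 13 in mutant and 40 in wildtype and that at 135694 bp had 3 in mutant and 13 in wildtype. Kifc1 had 4 in mutant and 25 in wildtype at a region past its end, with a log2 ratio of -2.38, and 32 in mutant and 44 in wildtype at a region at -6659 bp that was also assigned to BC033916, with a log2 ratio of -0.45. In Kif23, by contrast, the 4 regions had log2 ratios between -0.96 and -0.63.

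Other genes of microtubule transport were set beside the kinesins. Light chains and adaptors of kinesins had a region in 9 of 10 genes, with a median log2 ratio of -1.48 (-1.74 to -0.83), and 7 of the 9 were at least 2-fold lower in mutant. The highest were Mapk8ip1, a scaffold that links kinesin to cargo, with 41 in mutant and 145 in wildtype, Trak1, a mitochondrial adaptor, with 44 in mutant and 78 in wildtype, and the light chain Klc3, with 40 in mutant and 72 in wildtype. The Mapk8ip1 region lies 26100 bp past its start and was also assigned to Phf21a, Gyltl1b, Pex16 and 1700029I15Rik. That of Klc3 lies at -5722 bp and was also assigned to Ercc2 and Ckm. Kifap3, the partner protein of Kif3a and Kif3b, had 25 in mutant and 74 in wildtype at its start; it was named after its values were seen. Cytoplasmic dynein subunits, which make up the main minus-end motor, had a region in 10 of 13 genes and a median of -1.15 (-1.90 to -0.34), with 6 at least 2-fold lower. Dync1li2 had 45 in mutant and 108 in wildtype, Dync2h1, the dynein of intraflagellar transport, 15 in mutant and 74 in wildtype, and Dync1h1 18 in mutant and 70 in wildtype. The Dync1li2 region was also assigned to Ccdc79 and the Dync2h1 region to Dcun1d5.

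Dynactin and dynein regulator genes had a region in 11 of 12 genes, with a median of -1.32 (-1.64 to -0.69) and 8 at least 2-fold lower. Dctn5 had 89 in mutant and 280 in wildtype at a start shared with Palb2, Dctn6 33 in mutant and 122 in wildtype and Dctn4 36 in mutant and 101 in wildtype. The Dctn6 region was also assigned to Gm10131 and Mboat4. For the counts of genes at least 2-fold lower in these 3 lists, the background is the same 57.6% of all genes. For the counts of genes with a region, no share over all genes is given. With scaling the medians of light chains and adaptors, dynein and dynactin were -0.44, -0.10 and -0.28. Without it, the median over the highest regions of the 36 kinesins was -1.17 (-1.30 to -0.82), and the intervals of all 3 lists overlap it.

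**Figure D5:**
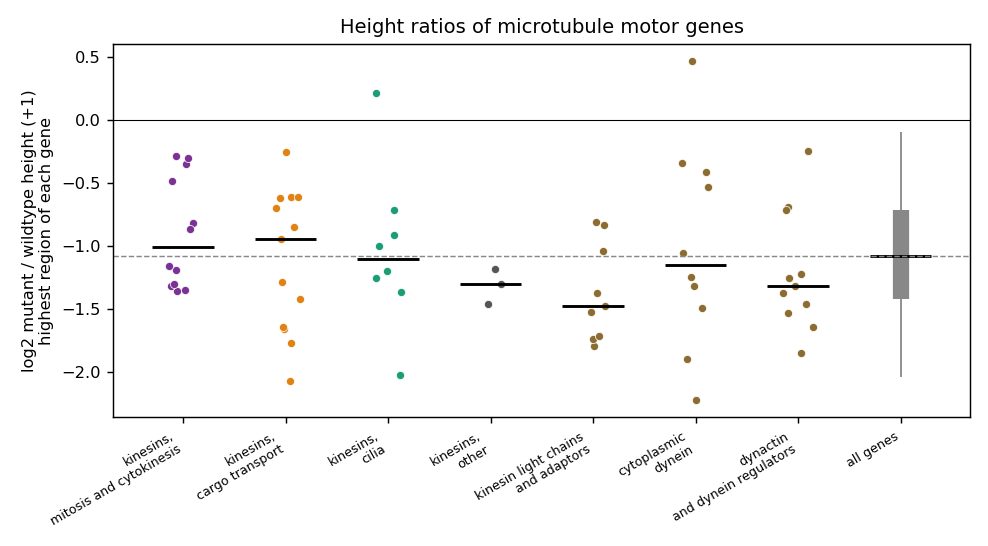
Log2 ratio of mutant to wildtype height at the highest region of each gene, for 4 groups of kinesins and 3 lists of other motor genes; points are genes and black lines medians, and the grey bar and line of all genes span the central 50% and 90%. All group medians lie between -0.94 (cargo kinesins) and -1.48 (light chains and adaptors), around the -1.08 of all genes; with scaling those of mitotic and cargo kinesins turn to 0.015 and 0.098.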

How the data were processed

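SRF libraries of 1 mutant and 1 wildtype cornea group were used. The submitters' processing notes name BWA and the mm10 build. Details of interval calling, duplicate reads and scaling were not given in the sources used here. Per the file headers, the authors' deposited signal columns hold a peak value and an average value for each region; a deposited 0 or 1 marks whether an interval was called. Coordinates and distances to gene starts were kept as deposited; it is unknown if starts count from 0 or 1. Each region was tied to kinesins by the authors' gene list, and a gene's highest region had the greatest mean of both heights. Scaling multiplied mutant heights by 2.1, which equalises the medians over regions called in both libraries. Medians carry order-statistic 95% intervals and shares exact binomial ones. Promoter sequences came from RefSeq and were matched by gene identifier. The log2 ratio and the scaling were tested on simulated heights. Python 3.11.15, numpy 2.4.6, pandas 2.3.3, scipy 1.17.1, Biopython 1.88 and matplotlib 3.10.9 were used.

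Members and lists were chosen with earlier results of these data known. Role groups follow textbook roles of each kinesin; Kifc5b was moved to mitosis with its copy Kifc1 after its values were seen. Named were the 10 highest kinesins, the 5 highest and 5 lowest ratios of those at or above the median height, every kinesin with a region at its start, 1 per family, and the 3 highest of each other list; all other kinesins were then added.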

Additional observations from a re-analysis of the deposited data

How the results depend on the processing

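No paired analysis was possible because there was 1 library per genotype, and none could be left out. Scaling both libraries to a common median moved the median of all kinesin regions to -0.013, the count of 2-fold lower regions to 9 and of 2-fold higher regions to 2. It turned the sign of the medians of cargo kinesins, to 0.098, and mitotic kinesins, to 0.015, and moved the median of Kif26a, Kif26b and Kif12 together to -0.26, of light chains and adaptors to -0.44, of dynein to -0.10 and of dynactin to -0.28; of 16 single kinesins whose sign turned, Kif24, the 1 that had been 2-fold lower, went to 0.036. The average value gave -0.73 for all kinesin regions, -1.06 for the 3 ungrouped kinesins and -0.83 for light chains and adaptors. For these 3 ungrouped genes a pseudocount of 5 gave -1.12 and the mean over regions -1.61. Within 1 kb of the start, 14 kinesins had an interval in mutant and 19 in wildtype. The share of all genes with such an interval in each library is not given. Among single genes the ratio left a nominal binomial interval of the paired heights, which treats heights as read counts, in 0 of 36 with a pseudocount of 5, in 1 (Kifc2) with the average value, which also turned the sign of Kif1c to 0.16, in 33 with scaling and in 8 with the region nearest the start. Without Kifc5b and Kifc1, with Kifc5b counted with transport, and with regions nearest to a kinesin start, settings chosen after seeing the data, group and overall medians stayed within their intervals. Why values moved was not tested. What depth limits at low regions is unknown.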
